A study of Zea mays with 2 samples.

Results

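The sucrose synthase genes of maize (Zea mays) described here are sh1 (GRMZM2G089713), sus1 (GRMZM2G152908) and sus2 (GRMZM2G318780), 3 of the 41406 gene models with a value, chosen by identifier. They were measured by RNA-seq in endosperm at 15 days after pollination in kernels of dek44, a defective kernel mutant, and of wild type (WT), with 1 library of values for each genotype. The allele, the genetic background and the number of kernels or plants behind each library are not stated in the labels, and no transgene or treatment is named for either group. The series text speaks of triplicates, but the values analysed are 1 column per genotype, which may be a pool of replicates, since no label says. Each column is called a library below. No difference has a replicate check, no test was made and every interval covers counting error only. A table of gene names listed no gene as dek44, so the level of the mutated gene is not given.

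Sucrose synthase converts sucrose and UDP into UDP-glucose and fructose, in a reaction that runs both ways. In filling kernels sucrose arrives from the mother plant, and the glucose unit of its cleavage feeds starch through ADP-glucose, while UDP-glucose also feeds cell wall polymers. sh1, the shrunken-1 gene, encodes the main isozyme of developing maize endosperm, and mutants of it have collapsed kernels with less starch. sus1 encodes an isozyme found widely in the plant, in embryo and vegetative tissue as well as endosperm. sus2 is a further gene of the family, with a less well described part in the kernel.

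Values are RPKM, reads scaled to the length of the gene model and to the size of the library, so levels of different genes can be set side by side. The read totals recovered from the RPKM values were 22612657 for dek44 and 20861135 for WT. Gene models that reached an RPKM of 1 in either library, 30136 of the 41406, are called expressed. Across these the median log2 ratio of dek44 over WT, computed on RPKM + 1, was 0.62, so most genes lay above equality and each ratio below is also given relative to that median. All 6 genes that stand for the labelled tissue, among them the zeins gz27 and zp15 and the starch gene wx1, were detected in both libraries, at 80.7 to 26132 RPKM in dek44 and 456 to 77278 RPKM in WT. In RNA of whole tissue, fewer cells of a type and less RNA per cell cannot be told apart.

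sh1 was by far the most abundant of the 3 genes in both libraries and was much lower in dek44. It had 787.6 RPKM in dek44 (95% counting interval 780.6 to 794.7, from 47890 reads) and 6565 RPKM in WT (6544 to 6586, from 368268 reads). The dek44 level was 8.34-fold lower (interval 8.26 to 8.42), a log2 ratio of -3.06, or -3.68 relative to the median of all genes. Among all gene models sh1 ranked 151 by RPKM in dek44 and 27 in WT. Its reads alone made up 0.212% of the recovered total in dek44 (exact binomial interval 0.2099% to 0.2137%) and 1.77% in WT (1.76% to 1.77%). Of the 30136 expressed genes 1116, or 3.7%, were at least 2-fold lower in dek44, and 83 had a log2 ratio below that of sh1. Among the 26 genes with a higher WT level than sh1, 17 were at least 2-fold lower in dek44, 0 were at least 2-fold higher, and 11 had a ratio below that of sh1. Those 26 were picked by their WT level, which is also the denominator of the ratio. The pick itself thus favours lower ratios, and the counts are no check on sh1.

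sus1, the isozyme gene of wider expression, differed in the other direction. It had 195 RPKM in dek44 (interval 191.1 to 198.5, from 10781 reads) and 50.97 RPKM in WT (49.03 to 52.97, from 2603 reads). The level was 3.82-fold higher in dek44 (3.66 to 3.99), a log2 ratio of 1.91, or 1.29 relative to the median of all genes, which is still past 2-fold. It ranked 1035 in dek44 and 2535 in WT. A 2-fold higher value in dek44 was common: 9529 expressed genes, or 31.6%, reached it, and 12.3% did relative to the median of all genes. Fewer exceeded the ratio of sus1, which was surpassed by 2361 expressed genes, or 7.83%.

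sus2 had nearly equal RPKM in both libraries. It stood at 46.2 RPKM in dek44 (44.4 to 47.99, from 2533 reads) and 46.7 RPKM in WT (44.8 to 48.6, from 2365 reads). The fold of dek44 over WT was 0.988 with an interval of 0.934 to 1.05, which includes equality, and the log2 ratio was -0.02. Because the median gene was higher in dek44, the same value lies at -0.64 relative to all genes, and 80.02% of expressed genes had a higher ratio. Its rank by RPKM was 4309 in dek44 and 2769 in WT, a lower place in the mutant library at a nearly equal RPKM.

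**Figure D1:**
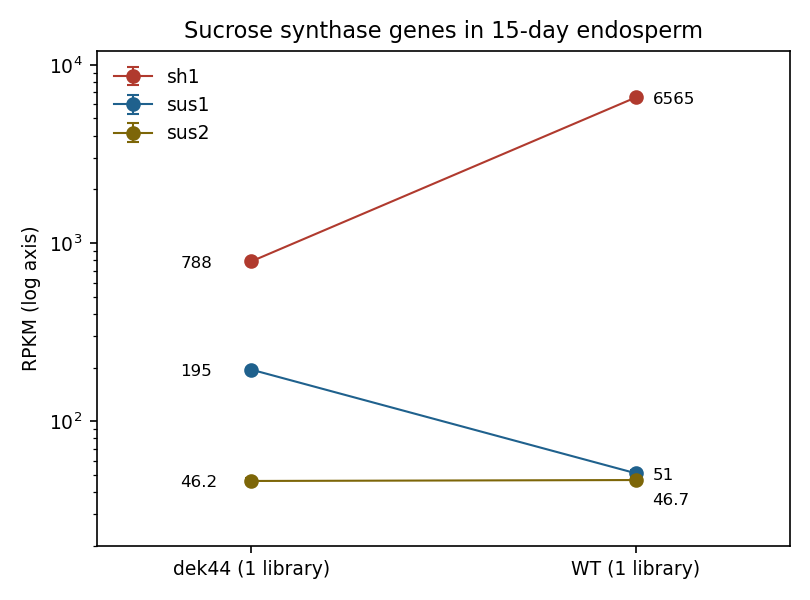
RPKM of sh1, sus1 and sus2 (log axis) in the dek44 library and the WT library, with 95% Poisson counting intervals that are mostly smaller than the points. sh1 stands at 787.6 in dek44 and 6565 in WT, sus1 at 195 and 50.97, and sus2 at 46.2 and 46.7.

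The order of the 3 genes by level was the same in both libraries, sh1 above sus1 above sus2, but the distances between them differed. sh1 exceeded sus1 4.04-fold in dek44 (interval 3.96 to 4.13) and 128.8-fold in WT (123.9 to 133.9). The advantage of sh1 over sus1 was thus 31.8 times smaller in dek44. sh1 exceeded sus2 17.1-fold in dek44 (16.4 to 17.8) and 140.5-fold in WT (134.97 to 146.4). sus1 stood 4.22-fold above sus2 in dek44 (4.04 to 4.41) and only 1.09-fold above it in WT (1.03 to 1.15). In WT those neighbours were close, and with a single library the spread between plants is unknown, so their order there rests on counting error alone. Ratios between genes within a library do not depend on how the libraries are scaled.

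Of the summed RPKM of the 3 genes, sh1 made up 76.6% in dek44 (interval 76.2% to 76.9%) and 98.5% in WT (98.49% to 98.57%). The share of sus1 was 18.9% in dek44 (18.6% to 19.3%) and 0.765% in WT (0.736% to 0.795%). sus2 accounted for 4.49% in dek44 (4.32% to 4.66%) and 0.701% in WT (0.673% to 0.730%). The share of sus2 was therefore larger in dek44 although its own RPKM was nearly the same, because the sum it is divided by was smaller.

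**Figure D2:**
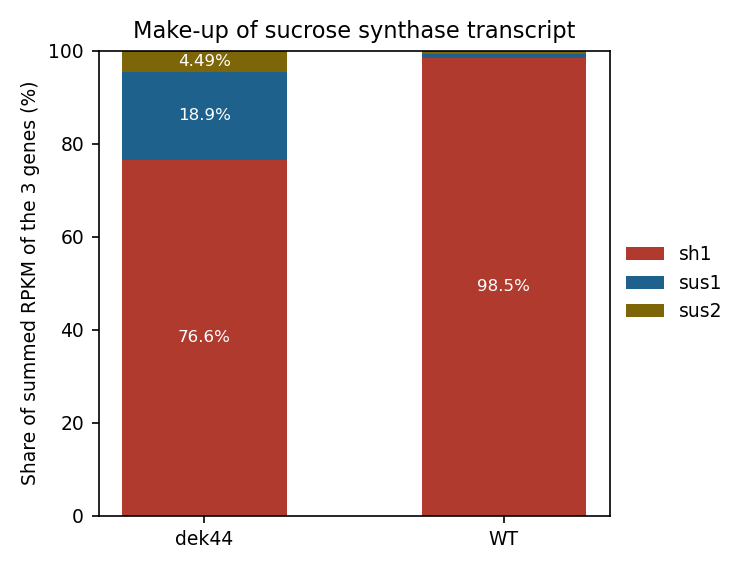
Share of each gene in the summed RPKM of sh1, sus1 and sus2, in percent, for dek44 and WT (1 library each). sh1 takes 76.6% in dek44 and 98.5% in WT, and the sus1 share is 18.9% in dek44 and 0.765% in WT.

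The summed level of the family was 1029 RPKM in dek44 and 6663 RPKM in WT, 6.48-fold lower in the mutant library. As recovered reads, which are not per length, the sum was 61204 in dek44 and 373236 in WT, or 6.61-fold lower relative to the library totals (exact conditional interval 6.55 to 6.67). The higher sus1 level was small beside the lower sh1 level. sus1 was 143.8 RPKM higher in dek44 and sh1 was 5777 RPKM lower, so the difference in sus1 amounted to 2.49% of that in sh1. Without sh1, the pair of sus1 and sus2 summed to 240.9 RPKM in dek44 and 97.7 RPKM in WT, 2.47-fold higher in dek44. How reads that match more than one of these related genes were counted is not stated in the labels or headers, and the part of such reads in the values was not tested. sus1 was higher in the library where sh1 was lower.

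**Figure D3:**
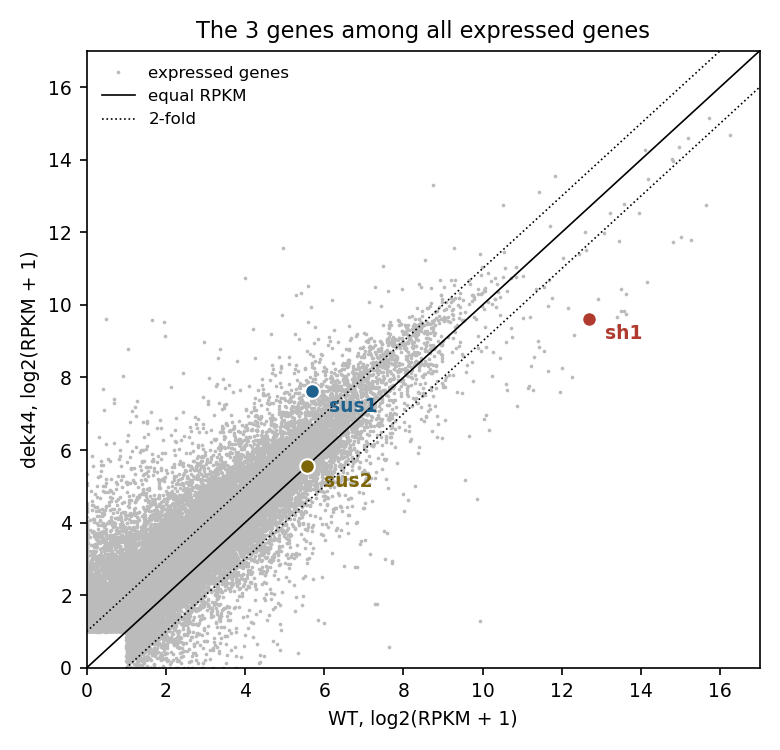
log2(RPKM + 1) in dek44 (vertical axis) against WT (horizontal axis) for the 30136 expressed genes in grey, with the 3 sucrose synthase genes in colour. The solid line marks equal RPKM and the dotted lines a 2-fold ratio. sh1 lies at the lower right, with a log2 ratio of -3.06, sus1 above the upper 2-fold line at 1.91 and sus2 on the line of equality at -0.02.

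By distance in the plane of that plot, the genes with a name that lay nearest to sh1 were all alpha zeins, storage protein genes of the endosperm. They were z1C2 (GRMZM2G397687), at a distance of 0.59 log2 units, z1C1_19 (GRMZM2G160739) at 0.60 and z1A1_6 (GRMZM2G353272) at 0.70. z1C2 had 1148 RPKM in dek44 and 7689 RPKM in WT. z1C1_19 had 571.8 RPKM in dek44 and 5033 RPKM in WT, and z1A1_6 had 809.1 RPKM in dek44 and 10694 RPKM in WT. Zein copies are near-identical, so the values of single zeins are uncertain.

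sus1 had much closer companions, as genes of its level are more numerous. The nearest with a name were BTF3 (GRMZM2G131577), at a distance of 0.09 with 196.9 RPKM in dek44 and 54.4 RPKM in WT, sir (GRMZM2G090338) at 0.13 and dhy-l (GRMZM2G031308) at 0.24. Nearest to sus2 among named genes were SR45_2 (GRMZM2G133926) at 0.03, with 46.5 RPKM in dek44 and 47.7 RPKM in WT, fgp1 (GRMZM2G393334) at 0.07 and PYL8 (GRMZM2G169695) at 0.10. Only gene models with a name were ranked, for sh1 also, and 2258 of the 41406 had one. Genes without a name may lie nearer. The measure rests on 2 libraries, which many genes share by level alone.

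The genes beside them on the chromosome, by the order of the RefSeq gene table, were not lower beside sh1. Of all expressed genes 31.6% were at least 2-fold higher in dek44 and 3.7% lower, so neighbours that are not lower are common. The median gene was 1.54-fold higher on RPKM + 1, and the folds of neighbours are not given relative to it. The next gene after sh1, GRMZM2G090980, had 9.41 RPKM in dek44 and 2.62 RPKM in WT, 3.59-fold higher in dek44 (2.37 to 5.61). On the other side the nearest gene with a value, GRMZM2G013607, which lies beyond 7 genes that could not be matched, was 2.99-fold higher (2.49 to 3.60). The gene next to sus1, GRMZM2G152105, had 48.7 RPKM in dek44 and 14.0 RPKM in WT, 3.47-fold higher (3.12 to 3.87), close to sus1 itself. On the other side of sus1, beyond 1 unmatched gene, GRMZM2G314663 was under the expression threshold, with 0.367 RPKM in dek44 and 0.363 RPKM in WT. Around sus2, GRMZM2G010823 was 8.22-fold higher (7.14 to 9.50) with 57.2 RPKM in dek44 and 6.96 RPKM in WT, while GRMZM2G069618 was 1.35-fold higher (1.17 to 1.54). They lie beyond 6 and 3 unmatched genes.

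The products of sucrose cleavage are used by fructokinases, hexokinases and UDP-glucose pyrophosphorylase, while invertases split sucrose by another route. A list of sucrose metabolism genes holds these kinds and also genes of sucrose synthesis and phosphoglucose isomerase. Apart from the 3 sucrose synthases, 13 of the 14 gene models in that wider list had a value, all but incw3, and 12 were expressed. Of these, 7 were higher in dek44 by 2-fold or more, 0 lower and 5 within 2-fold, against 31.6% higher and 3.7% lower of all expressed genes, with a median log2 ratio of 1.20 against 0.62 over all expressed genes. Relative to the median of all genes, 4 were higher and 2 lower by that measure, against 12.3% and 10.9% of all expressed genes.

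The fructokinase genes, whose enzymes phosphorylate the fructose that sucrose synthase releases, differed in direction. frk2 had the highest log2 ratio of the list on RPKM + 1, at 3.51, though not the highest plain fold. frk2 (GRMZM2G051677) had 298.7 RPKM in dek44 and 25.3 RPKM in WT, 11.8-fold higher in dek44 (10.8 to 12.9). frk1 (GRMZM2G086845) had 15.3 RPKM in dek44 and 20.7 RPKM in WT, 1.35-fold lower (1.17 to 1.57). Both together summed to 313.98 RPKM in dek44 and 46.01 RPKM in WT. The sucrose synthase sum was thus 3.28 times the fructokinase sum in dek44 and 144.8 times in WT. In dek44 frk2 stood above sus1 and below sh1, and in WT it stood below all 3 sucrose synthases.

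Invertases hydrolyse sucrose to glucose and fructose. The 4 invertase genes of the list with a value had far lower levels than sh1 in both libraries. Other invertase genes, among them those of neutral invertases, were not read. The cell wall invertase gene mn1 (GRMZM2G119689), active in the basal transfer layer, had 84.6 RPKM in dek44 and 21.9 RPKM in WT, 3.86-fold higher. incw1 (GRMZM2G139300), also for a cell wall invertase, had 9.19 RPKM in dek44 and 0.784 RPKM in WT. The vacuolar invertase gene ivr1 (GRMZM2G394450) had 3.83 RPKM in dek44 and 0.0238 RPKM in WT, where it rested on 1 read, so its 161-fold ratio has an interval of 28.4 to 6376. ivr2 (GRMZM2G089836) stayed under the expression threshold in both. The 4 invertases with a value summed to 98.1 RPKM in dek44 and 22.7 RPKM in WT, and the sucrose synthase sum was 10.5 times that in dek44 and 293 times in WT.

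Among the remaining genes, hex2 (GRMZM2G432801), for a hexokinase, was 3.63-fold higher in dek44 (2.94 to 4.52), with 12.5 RPKM in dek44 and 3.44 RPKM in WT. ugu1 (GRMZM2G134903), listed for UDP-glucose pyrophosphorylase, which turns UDP-glucose into glucose 1-phosphate, had 3.49 RPKM in dek44 and 0.736 RPKM in WT. spp1 (GRMZM2G055489), for the phosphatase of the last step of sucrose synthesis, was 2.08-fold higher (1.93 to 2.24), at a log2 ratio of 1.04. sps1 (GRMZM5G875238) and SPP2 (GRMZM2G097641), of the same pathway of synthesis, had log2 ratios of 0.60 and 0.39. The plain fold of sps1 was 2.20 (1.57 to 3.12), at 1.64 RPKM in dek44 and 0.748 RPKM in WT. It counts as within 2-fold only on RPKM + 1. The pair of models named phi1, phosphoglucose isomerase, had log2 ratios of -0.36 and -0.94. Relative to the median of all genes, frk2, incw1, ivr1 and mn1 remained past 2-fold, at log2 ratios of 2.89, 1.89, 1.61 and 1.28. On that scale hex2 at 0.98, ugu1 at 0.75 and spp1 at 0.41 were not past it, and frk1 at -1.03 and the phi1 model GRMZM6G477257 at -1.57 were more than 2-fold lower.

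**Figure D4:**
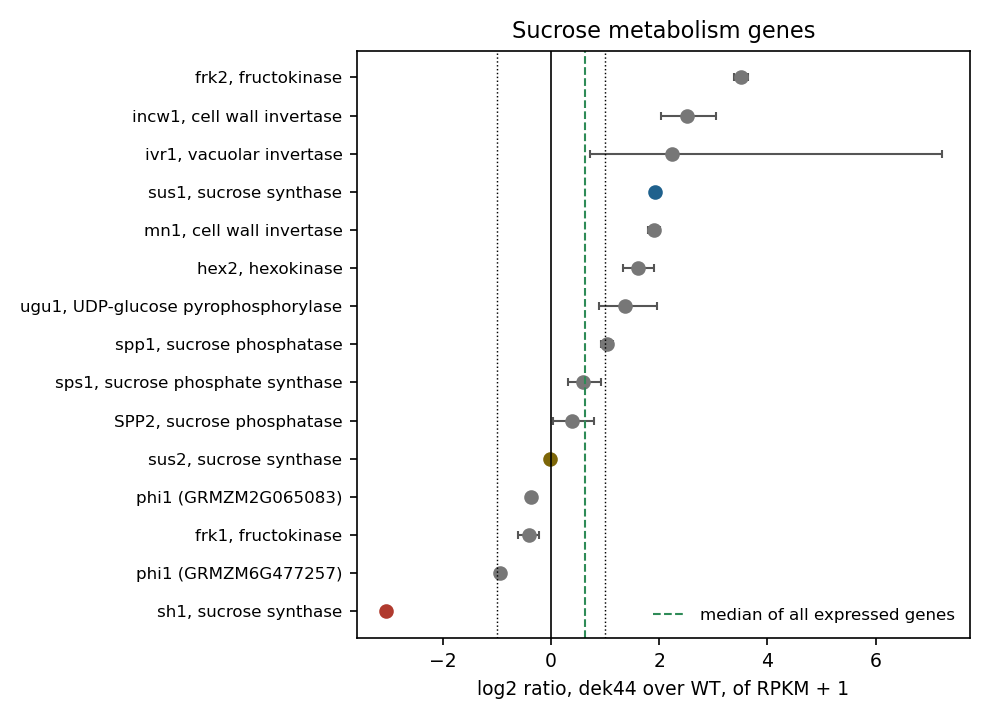
log2 ratio of dek44 over WT, on RPKM + 1, for the 15 expressed gene models of the sucrose metabolism list, 1 library each. Bars are 95% counting intervals, dotted lines mark 2-fold and the dashed line the median of all expressed genes at 0.62. frk2 is highest at 3.51 and sh1 lowest at -3.06, apart from the other sucrose synthases.

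The starch genes that use the products downstream were lower, as sh1 was. bt2 (GRMZM2G068506) and sh2 (GRMZM2G429899) encode the subunits of ADP-glucose pyrophosphorylase, bt1 (GRMZM2G144081) carries ADP-glucose into the plastid, and wx1 (GRMZM2G024993) makes amylose. All 4 were at least 2-fold lower in dek44, also relative to the median of all genes, against 3.7% of all expressed genes as deposited and 10.9% relative to the median. Set against them, sh1 had 4.11 times the RPKM of bt2 in dek44 and 1.64 times in WT. For sh2 the ratio was 1.54 in dek44 and 2.42 in WT. It was 2.46 in dek44 and 2.76 in WT for bt1, and 2.73 in dek44 and 2.06 in WT for wx1. The level of sh1 relative to these genes thus differed by less than 3-fold between the libraries. Relative to sus1 it differed 31.8-fold, and relative to sus2 8.24-fold. That contrast follows from direction, as the 4 genes were lower, like sh1, while sus1 was higher and sus2 nearly equal. The 4 were chosen with earlier results known, and they ranged from 5.29-fold lower in dek44 (sh2) to 20.8-fold lower (bt2).

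Markers of other kernel cells are given beside these values, to be read against the 31.6% of all expressed genes that were at least 2-fold higher and the 3.7% lower, or 12.3% and 10.9% relative to the median of all genes. Of the 5 expressed markers of the basal transfer layer, the layer that takes up sugar from the mother plant, all 5 were at least 2-fold higher in dek44, and 4 relative to the median, and the list summed to 2349 RPKM in dek44 and 276.7 RPKM in WT. This list holds mn1, and BETL1 was at 0.694 RPKM in dek44 and 0.564 RPKM in WT. Both embryo-surrounding markers that were read were at least 2-fold higher, also relative to the median, with a sum of 118.4 RPKM in dek44 and 8.27 RPKM in WT. Of 5 embryo markers 2 were higher by 2-fold or more and 0 lower, or 1 and 1 relative to the median, with a sum of 490.4 RPKM in dek44 and 405.2 RPKM in WT. Of the 4 aleurone markers with a value, 2 were expressed and both were at least 2-fold higher, but 0 relative to the median, and the list summed to 19.8 RPKM in dek44 and 7.37 RPKM in WT, where 2 of the 4 were at 0. The 6 endosperm genes were all at least 2-fold lower, also relative to the median, with 33886 RPKM in dek44 and 140923 RPKM in WT. They include wx1 and bt2, which were already counted among the starch genes above. The part of these cell types in the sucrose synthase values was not tested. Further markers of the transfer layer, embryo, embryo-surrounding region and aleurone, and markers of maternal green tissue, were planned but not read.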

How the data were processed

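Per the file headers, the authors deposited RPKM, 1 column for dek44 and 1 for WT. Reads were aligned with Bowtie 0.12.2 to B73 RefGen v3, per the submitters' processing notes. No source used here states the counting rule, strand use, handling of multiply matching reads or lengths of genes. Names came from a RefSeq table of another assembly, Zm-B73-REFERENCE-NAM-5.0, used for names and gene order; 16689 identifiers (40.3%) matched. Protein and promoter sequences were not used here.

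Read totals were recovered as the pair that makes genes whole reads over whole lengths. All of 2000 genes checked came out whole within 0.002 reads plus rounding. In simulated data of 41406 genes, 3 of 3 pairs of totals were recovered. Each gene's reads are the smallest that could be fitted with a length of at least 100 bases, so true reads may be a multiple. For sh1, sus1 and sus2 the lengths were 2689, 2448 and 2427 bases. Below 5000 bases, 2 lengths could be fitted for sus1 and for sus2 and 1 for sh1. A length 2 times as long also gives whole reads, and for sh1 it lies past that limit. The reads of each of these genes could thus be 2 times those printed. In simulation such reads equalled the true ones for 83.3% of genes tested, and the true reads were a whole multiple of them for 98.7%. The genes tested all had many reads in both simulated libraries, so genes with few reads were not covered.

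Ratios are log2((dek44 RPKM + 1)/(WT RPKM + 1)), which understates low genes; folds are plain ratios with 95% exact conditional binomial (Clopper-Pearson) intervals. Intervals of shares hold the make-up of the other genes fixed. Members, lists and rules were chosen with earlier results of these data known. The genes named are the 3 members, the sucrose metabolism genes past 2-fold, the further fructokinase, the 3 nearest named genes for each member and 4 starch genes; phi1, ivr2, sps1, SPP2 and chromosome neighbours were added after their values were seen. Python 3.11.15, numpy 2.4.6, pandas 2.3.3 and scipy 1.17.1 were used.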

Additional observations from a re-analysis of the deposited data

How the results depend on the processing

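The lower sh1 and higher sus1 stayed past 2-fold under every scaling and pseudocount tried. With the median ratio set to 0, the trimmed mean and the sum outside the 100 most abundant genes, log2 ratios were -3.68, -3.67 and -3.69 for sh1, 1.29, 1.30 and 1.29 for sus1, -0.64, -0.63 and -0.63 for sus2, and -3.32, -3.31 and -3.32 for the family sum. A pseudocount of 5 gave 1.84 for sus1. Shares of recovered reads, which are not per length, were 78.2% in dek44 and 98.7% in WT for sh1, 17.6% and 0.697% for sus1, and 4.14% and 0.634% for sus2. Under those 3 scalings the expressed genes past 2-fold numbered 3703, 3742 and 4290 higher and 3284, 3246 and 2513 lower; with a pseudocount of 5 it was 4192 and 543. Under the 3 scalings, higher genes were 53.0%, 53.5% and 63.1% of those past 2-fold, against 89.5% as deposited and 88.5% with a pseudocount of 5. Setting the median to 0 puts as many expressed genes above 0 as below it, which pulls this split towards even. With the 3 sucrose synthases counted in, the sucrose metabolism list had 15 expressed genes. As deposited, 8 of these were at least 2-fold higher, sus1 among them, and 1 was lower, which was sh1. The number higher was 5 with the median, the trimmed mean and a pseudocount of 5. The number lower was 3, 3 and 2 under the 3 scalings. The scalings move each gene by 1 factor, and a higher pseudocount shrinks low genes. No further gene model was named as a sucrose synthase, so the wider family could not be tried. No paired analysis was possible because a genotype has 1 library only, so none could be left out either.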
